A study of Homo sapiens with 12 samples.

Results

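Bafilomycin A1 (BafA1) was set against vehicle in Caco-2 cells kept in nutrient-rich medium, and the response was described across every gene with enough reads to test. Caco-2 is a human colorectal adenocarcinoma line, a single cancer line that acquires features of small-intestinal enterocytes when dense. The members are 6 of the 12 RNA-sequencing libraries of the series, taken by their labels as 3 with BafA1 and 3 with vehicle, and 18047 of 54553 listed genes passed the filter on low counts. Both groups were wild type and sub-confluent, in Eagle's medium with 1 g/L glucose, 2 mM glutamine and 20% fetal bovine serum. BafA1 was given at 100 nM for 48 h, and vehicle (its solvent is not given in the sources used here) for the same 48 h. The other 6 libraries, used for the shared estimate of spread and for 1 comparison near the end, came from cells held for 48 h at 0.1 g/L glucose, 0.2 mM glutamine and 1% serum with BafA1 or vehicle, 3 libraries each. Total RNA was depleted of ribosomal RNA and made into stranded libraries. The labels do not tell whether replicates were grown as separate cultures, and p-values then reflect only library-to-library spread, which could be technical.

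BafA1 binds the membrane sector of the vacuolar H+-ATPase (V-ATPase), the pump that acidifies lysosomes, endosomes and the trans-Golgi. A lysosome that cannot be acidified degrades little, and it stops returning amino acids, cholesterol and iron to the cytosol. The lysosomal surface is also where the Rag GTPases bring the growth kinase complex mTORC1 to be activated, and where that complex holds the transcription factors TFEB and TFE3 in the cytosol. The genes below are therefore ordered by role, starting at the lysosome and moving through autophagy, nutrient and lipid supply, stress and growth to the epithelial program.

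The 6 rich-medium libraries held 37409932 to 51649207 assigned reads in the BafA1 group and 12969811 to 41431132 in the vehicle group, where replicate 1 was the shallowest. Transcripts of colon epithelium were abundant, with 9 of 10 marker genes tested (CDX1 was too low) and KRT8 the highest at up to 5059 CPM (read counts scaled to 1 common library total). Their summed level was 5759 to 6695 CPM with BafA1 and 7109 to 8897 with vehicle. Markers of immune and endothelial cells summed to at most 12.2 and 6.74 with BafA1 and 9.70 and 14.6 with vehicle, and the fibroblast list summed to 117 to 182 with BafA1 and 156.5 to 312 with vehicle, mostly PDGFRA. Of 17 fibroblast, immune and endothelial markers 12 were tested and edgeR's quasi-likelihood test called 0, against 3 at an unadjusted p under 0.05 and 2 with DESeq2 (none with limma-voom). Of the epithelial markers 2 were called higher and 2 lower. BafA1 replicate 3 stood apart. Across tested genes its Spearman correlation was 0.985 with each of its group's other libraries, which correlated at 0.992 with each other, and 0.985 to 0.990 with the 3 depleted-medium vehicle libraries. Correlations within the vehicle group were 0.966 to 0.978. Results below are given with and without BafA1 replicate 3 where it matters, values per gene always run in the order of replicates 1, 2 and 3, and levels per gene are in CPM after scaling between libraries.

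With BafA1 1109 genes (6.15% of those tested) were called higher and 862 (4.78%) lower at an adjusted p under 0.05, 10.9% in either direction. Leaving out BafA1 replicate 3 left 655 genes (3.51%) higher and 357 (1.91%) lower, and leaving out vehicle replicate 1 left 873 (4.68%) and 657 (3.53%). Without BafA1 replicate 1 the counts were 765 and 422, and without BafA1 replicate 2 they were 725 and 511. Fitting only the 6 rich-medium libraries gave 293 (1.75%) and 203 (1.21%), DESeq2 gave 1594 (8.83%) and 1377 (7.63%), limma-voom with sample weights gave 390 (2.16%) and 402 (2.23%), and leaving out both BafA1 replicate 3 and vehicle replicate 1 gave 653 (3.52%) and 357 (1.93%). A core of 460 higher (2.55%) and 264 lower genes (1.46%) was called in the main comparison and again without any 1 of the 6 libraries. The median log2 fold change of all tested genes was 0.02. Fewer cells of a kind and less RNA per cell cannot be told apart in bulk libraries.

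Among called genes with non-overlapping groups and an average of 5 CPM or more, clone and locus names left out, the 4 highest fold changes were those of DDIT4 (2.94), LAMP3 (2.90), YPEL2 (2.89) and INHBE (2.74), followed by AKR1C1 (2.68), all on the log2 scale. DDIT4, which restrains mTORC1, had 101, 136 and 116 CPM with BafA1, against 9.004, 14.8 and 21.7 CPM with vehicle. The groups lay far apart, with every BafA1 library above every vehicle library (log2 fold change 2.94, SE 0.26, adjusted p = 3.45e-05), and the fold change was 2.69 to 3.28 whichever library was left out. AKR1C1, a hydroxysteroid dehydrogenase that also detoxifies aldehydes (chromosome 10, 4963415 to 4983283, GRCh38.p14), had 93.9, 59.99 and 84.9 CPM with BafA1, against 9.08, 15.4 and 12.3 CPM with vehicle (log2 fold change 2.68, SE 0.20, adjusted p = 8.49e-06). Its neighbour AKR1C2 (chromosome 10, 4987775 to 5018000), among the genes with the smallest p but not among the 15 highest, had 54.2, 52.6 and 82.6 CPM with BafA1, against 15.8, 16.7 and 13.9 CPM with vehicle (log2 fold change 2.03). The groups did not overlap for either gene, but the AKR1C genes are close copies whose reads may be split between them.

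TCP11L2, UNC5B and S100P were among the 15 highest fold changes of such genes, while HKDC1 and HPN were named for their small p. TCP11L2 (chromosome 12, 106297935 to 106347003) had 29.6, 22.7 and 32.9 CPM with BafA1, against 6.62, 5.04 and 3.93 CPM with vehicle (log2 fold change 2.48, SE 0.20, adjusted p = 1.87e-05). UNC5B, a netrin receptor, had 46.3, 71.6 and 88.6 CPM with BafA1, against 9.08, 17.8 and 18.9 CPM with vehicle (log2 fold change 2.15). Both were high in all 3 BafA1 libraries, and UNC5B was lowest in the shallow vehicle library. S100P, a calcium-binding protein of gut epithelium, had 14.1, 11.2 and 11.3 CPM with BafA1, against 0.893, 1.804 and 4.03 CPM with vehicle, a log2 fold change of 2.37. HKDC1, a hexokinase-family protein, reached 56.9 ± 5.93 CPM with BafA1, against 20.3 ± 2.69 CPM with vehicle (SD, n = 3 each), and HPN, the membrane serine protease hepsin, reached 23.8 ± 2.52 CPM, against 6.96 ± 0.955 CPM with vehicle. Their log2 fold changes were 1.49 and 1.76. Each of these 5 calls held in all 6 comparisons that left out 1 library.

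At the low end stood an oxidase, secreted factors and an RNA-binding protein. NOX1, the superoxide-producing oxidase of colon epithelium, had 12.9, 17.4 and 8.79 CPM with BafA1, against 41.6, 62.9 and 46.3 CPM with vehicle (log2 fold change -1.95, SE 0.33, adjusted p = 0.00275). LIN28A, which blocks let-7 microRNA maturation, had 12.4, 6.495 and 7.14 CPM with BafA1, against 48.7, 20.8 and 27.8 CPM with vehicle (log2 fold change -1.90). HSPA4L, a nucleotide exchange factor for HSP70 chaperones, had 11.9, 14.4 and 12.2 CPM with BafA1, against 44.9, 28.6 and 37.9 CPM with vehicle (log2 fold change -1.53, SE 0.19, adjusted p = 0.000384). In all 3 genes the groups were fully separate, and HSPA4L was the tightest, its BafA1 libraries lying within a few CPM of each other. LRRN4 and KCNJ8, a leucine-rich membrane protein and a potassium channel subunit, had log2 fold changes of -1.48 and -1.47, NPPB, the natriuretic peptide B gene, of -1.75, and FJX1 of -1.70, all with separate groups.

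**Figure D1:**
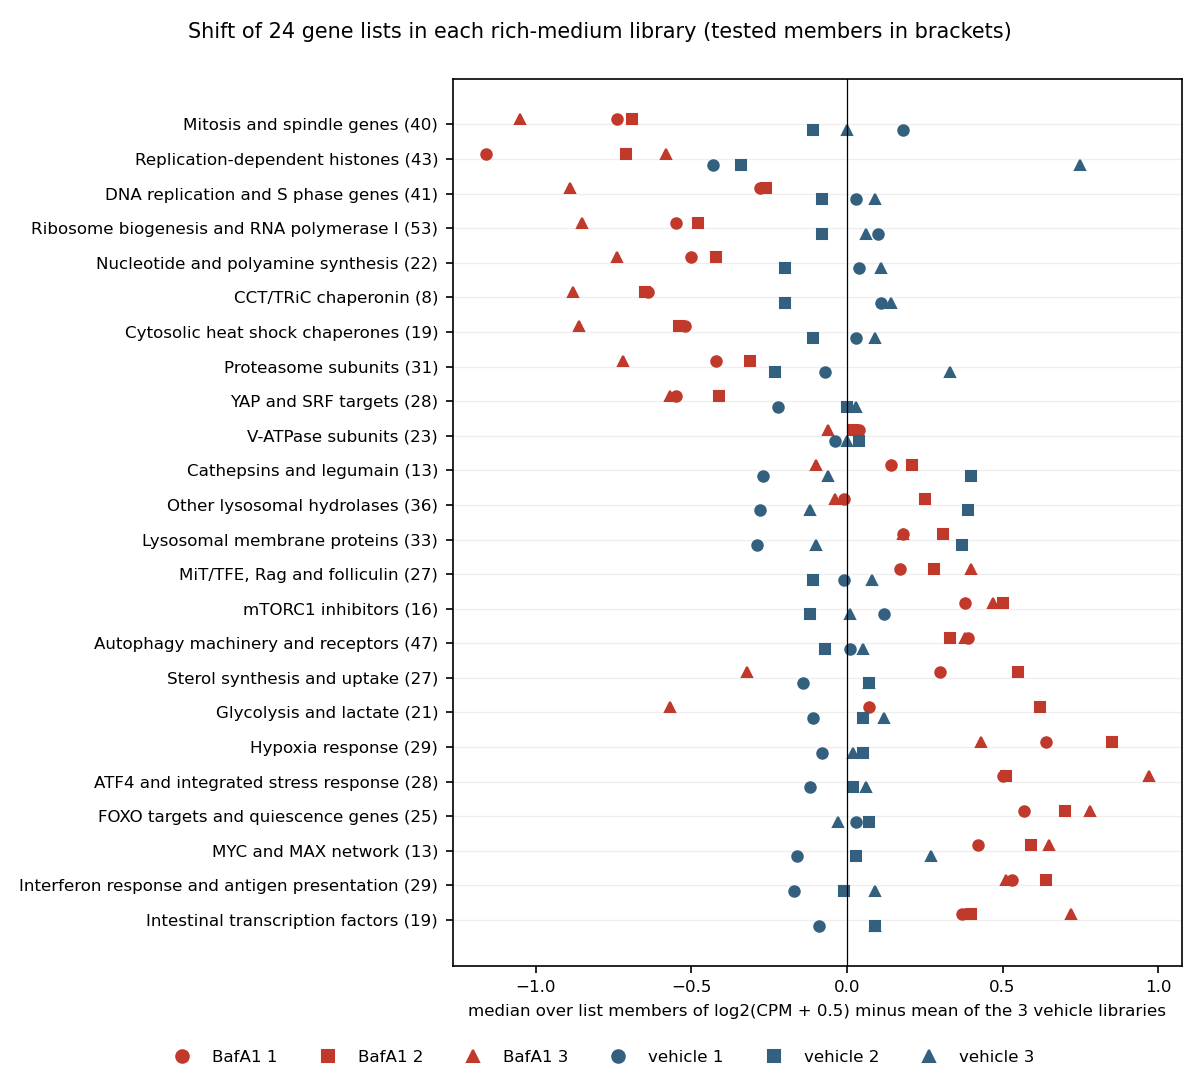
Each point is 1 rich-medium library; the x axis is the median over a list's tested members of log2(CPM + 0.5) minus the mean of the 3 vehicle libraries, red for BafA1 and blue for vehicle, with replicate number by shape. The mitosis list sat at -0.74, -0.69 and -1.05 in the BafA1 libraries, while sterol synthesis and glycolysis had BafA1 replicate 3 (red triangle) on the opposite side of 0 from BafA1 replicates 1 and 2.

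Few genes of the lysosome itself were called. Of 23 V-ATPase subunit genes, the target of the drug, edgeR called 0 with a median log2 fold change of -0.02, while 3 members passed an unadjusted p of 0.05 and 2 were higher by DESeq2. Of 33 lysosomal membrane proteins 3 rose (LAMP3, CLN3 and TMEM106B) and 0 fell, a median of 0.17. This count turned on single libraries. It was 0 without vehicle replicate 1 or vehicle replicate 3, 1 without BafA1 replicate 3, 8 without vehicle replicate 2, and 0 when only the 6 rich-medium libraries were fitted. LAMP3, a lysosomal membrane protein related to LAMP1, had 9.095, 6.43 and 42.8 CPM with BafA1, against 2.08, 3.21 and 2.33 CPM with vehicle (log2 fold change 2.90, SE 0.67, adjusted p = 0.0222). BafA1 replicate 3 stood far above the other libraries; the log2 fold change was 1.58 without it, and the call was lost without any 1 of the vehicle libraries. LAMP1, the most abundant coat protein of the lysosomal membrane, had 319, 391 and 276 CPM with BafA1, against 262, 479.6 and 276 CPM with vehicle, and LAMP2, the receptor of chaperone-mediated autophagy, had 274, 282 and 246 CPM with BafA1, against 277, 348 and 250.2 CPM with vehicle. Their groups overlapped, and the fold changes of -0.05 and -0.12 did not pass (adjusted p = 0.925 and 0.731). MCOLN1, the lysosomal calcium channel, had a log2 fold change of 0.07 (adjusted p = 0.899).

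Among 13 cathepsins and legumain 1 fell and 0 rose (median 0.06). It was CTSC, the dipeptidyl peptidase that activates serine proteases, with 139.6, 184 and 128 CPM with BafA1, against 279.7, 359.5 and 343 CPM with vehicle (log2 fold change -1.12, SE 0.18, adjusted p = 0.00202). All 3 BafA1 libraries were below all 3 vehicle libraries, and the call held without any 1 of them. CTSD, the main aspartic protease of the lysosome, had 348, 456 and 351 CPM with BafA1, against 156, 365 and 234 CPM with vehicle, and CTSB, a cysteine protease, had 304, 350.3 and 283 CPM with BafA1, against 238, 415 and 295 CPM with vehicle. In both, vehicle replicate 2 was high and vehicle replicate 1 low, the groups overlapped, and neither passed (adjusted p = 0.154 and 0.971). Of 36 other hydrolases 1 rose, the sialidase NEU1 with 476, 526 and 388 CPM with BafA1, against 179.7, 350.2 and 241 CPM with vehicle (log2 fold change 0.85), and 2 fell, PPT1 (-0.78) and ARSB (-0.67). Each of these 3 calls was lost when any of several single libraries was left out, and without vehicle replicate 2 the list had 7 higher and 0 lower. Of 46 endosomal trafficking genes 1 rose, the tethering subunit VPS11, with a list median of 0.00, and it was not called without vehicle replicate 1 or BafA1 replicate 3. These counts are near the 6.15% and 4.78% called among all genes.

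The nutrient-sensing machinery on the lysosomal surface responded in some of its members. Of 27 genes of the MiT/TFE, Rag and folliculin list 5 rose and 0 fell (median 0.27). The number rising was 4 without BafA1 replicate 3, 3 without BafA1 replicate 1 or 2, and 1 when only the 6 rich-medium libraries were fitted. RRAGD, a Rag GTPase that binds mTORC1, had 17.8, 20.2 and 14.4 CPM with BafA1, against 4.17, 2.6 and 4.56 CPM with vehicle (log2 fold change 2.22, SE 0.26, adjusted p = 0.000287). Every BafA1 library was more than 3 times the highest vehicle library. FLCN, the folliculin GTPase-activating protein for RRAGC and RRAGD, had 61.1, 66.7 and 77.5 CPM with BafA1, against 40.03, 44.2 and 46.9 CPM with vehicle (log2 fold change 0.65, SE 0.14, adjusted p = 0.00971), a smaller difference with groups that did not overlap. FNIP2, its partner, had a log2 fold change of 0.81, BMT2 (SAMTOR, a sensor of S-adenosylmethionine) of 0.87 and RRAGC, named after its values were seen, of 0.60. The FNIP2 call was lost without BafA1 replicate 1 or 2, that of BMT2 without BafA1 replicate 1 or 3, and that of RRAGC without any library except vehicle replicate 1. The factors TFE3, with 43.01, 48.3 and 47.2 CPM with BafA1, against 42.5, 42.8 and 46.4 CPM with vehicle, TFEB (log2 fold change 0.08) and MITF (0.00) did not pass, and their groups overlapped.

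Inhibitors of mTORC1 rose in 5 of 16 cases and fell in 1 (median 0.44), with 3 rising without BafA1 replicate 3. DEPTOR, which binds and inhibits the kinase, had 7.25, 6.78 and 6.64 CPM with BafA1, against 2.604, 2.02 and 2.12 CPM with vehicle (log2 fold change 1.63, SE 0.23, adjusted p = 0.00087). Its BafA1 libraries were nearly equal and all above the vehicle libraries. The leucine sensor SESN2 had 25.8, 27.6 and 54.2 CPM with BafA1, against 10.5, 18.5 and 19.4 CPM with vehicle, and SESN3 had 55.0, 42.1 and 96.4 CPM with BafA1, against 38.8, 26.0 and 22.6 CPM with vehicle. BafA1 replicate 3 was the highest library for both, and without it neither passed (log2 fold change 0.71 and 0.75, adjusted p = 0.075 and 0.0748). The members of this list named after their values were seen are TRIB3, a pseudokinase that binds AKT (1.06), and TBC1D7, a subunit of the TSC complex and the member that fell (-0.84).

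Autophagy genes rose in 14 of 47 cases with 0 falling (median 0.38), and in 9 without BafA1 replicate 3. Of the 14 calls, 8 were kept without any 1 of the 6 libraries. ULK1, the kinase that starts autophagosome formation, had 95.5, 98.8 and 119.8 CPM with BafA1, against 29.8, 43.3 and 31.8 CPM with vehicle (log2 fold change 1.58, SE 0.17, adjusted p = 0.000152). WIPI1, a phosphoinositide-binding protein of the forming membrane, had 34.7, 35.8 and 40.4 CPM with BafA1, against 15.2, 8.702 and 13.1 CPM with vehicle (log2 fold change 1.60). SQSTM1, the p62 cargo receptor, had 724, 664 and 577 CPM with BafA1, against 244, 353 and 388 CPM with vehicle (log2 fold change 1.00). Groups were separate for all 3. The mitophagy receptor BNIP3, also a hypoxia-response gene, had 59.5, 92.2 and 51.5 CPM with BafA1, against 16.4, 11.2 and 25.8 CPM with vehicle, a log2 fold change of 1.93. MAP1LC3B, the LC3 protein that coats autophagosomes, had 160.5, 139 and 126 CPM with BafA1, against 135, 77.5 and 99.8 CPM with vehicle, where vehicle replicate 1 overlapped the BafA1 range and the test was not passed (adjusted p = 0.156).

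**Figure D2:**
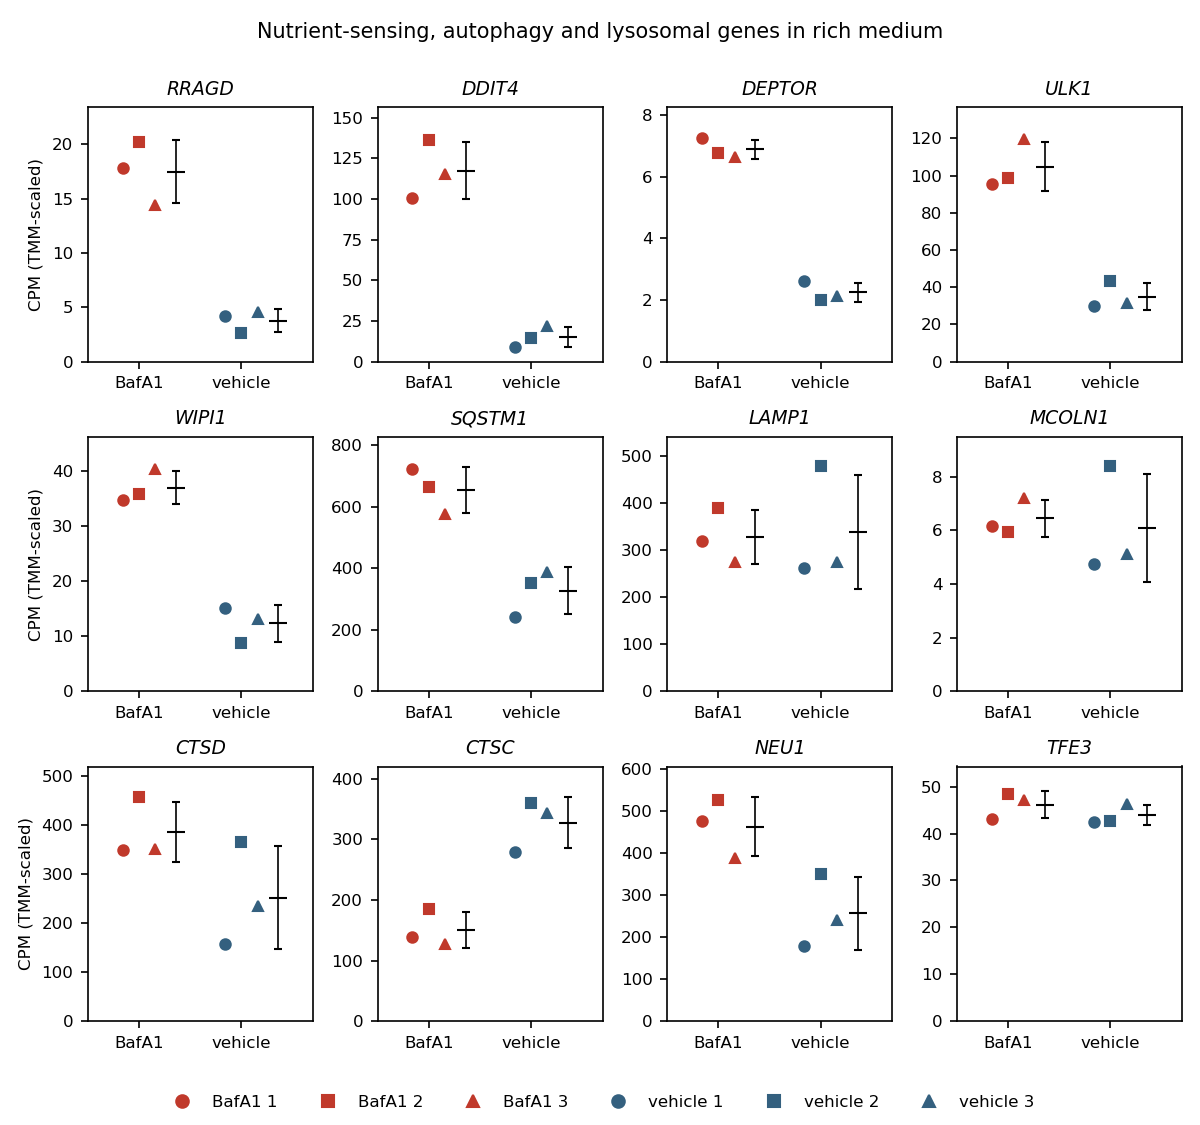
CPM (linear axes from 0) of 12 genes in each BafA1 library (left, red) and vehicle library (right, blue), with shape giving the replicate and the black bar the mean with its SD (n = 3). RRAGD, DDIT4, DEPTOR, ULK1, WIPI1 and SQSTM1 have separate groups, while LAMP1, MCOLN1, CTSD and TFE3 overlap and CTSC is lower with BafA1.

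The 8-base site TCACGTGA, known as the CLEAR element that TFEB and TFE3 bind, was searched on both strands in promoters from RefSeq (GRCh38.p14; 250 bases before to 50 after the annotated start), which were matched for 12548 of the tested genes. It lies in 9 of the 75 matched promoters of the V-ATPase, membrane, cathepsin and hydrolase lists (12%), in 1.77% of those of all tested genes and in 1.04% of all 27305 promoters in the set. Among promoters of genes called higher the share was 1.73%, and among those called lower 1.30%. In the pooled lysosomal count a membrane protein gene was entered more than once (34 entries for 33 genes), so it may be repeated in the 75 and the 9. The shorter core CACGTG, which the longer site contains, lies in 9.79% of tested promoters. Windows of 60 bases upstream of the start are shown for LAMP1 and MCOLN1, which hold the site and did not pass the test, with the site in capitals.
LAMP1: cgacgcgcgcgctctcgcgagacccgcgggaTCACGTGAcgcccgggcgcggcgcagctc
MCOLN1: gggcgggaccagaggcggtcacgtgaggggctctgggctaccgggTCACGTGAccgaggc
The windows are chr13:113297179-113297238, plus strand, and chr19:7522564-7522623, plus strand. In the MCOLN1 window a further copy of the site is printed in lower case, upstream of the capitals.

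Sterol and glucose genes split the BafA1 group. Of 27 sterol synthesis and uptake genes 2 rose (median 0.24), near the 6.15% called higher among all tested genes. The count was 4 (median 0.43) without BafA1 replicate 3 and 1 without vehicle replicate 1 or 2 or BafA1 replicate 1 or 2, and the median member stood at 0.30, 0.55 and -0.32 above the vehicle mean in BafA1 replicates 1, 2 and 3. INSIG1, which retains the sterol sensor SCAP in the endoplasmic reticulum, had 437, 481 and 221 CPM with BafA1, against 159.5, 169.9 and 178 CPM with vehicle (log2 fold change 1.17, SE 0.23, adjusted p = 0.00611; 1.44 without BafA1 replicate 3). Replicate 3 was the lowest of the BafA1 libraries but still above all vehicle libraries. MVD, a decarboxylase of the mevalonate pathway, had 183, 199.9 and 98.9 CPM with BafA1, against 54.6, 84.4 and 111 CPM with vehicle, so that BafA1 replicate 3 lay inside the vehicle range (log2 fold change 0.94, or 1.20 without that library, and not called without vehicle replicate 1 or 2 or BafA1 replicate 1 or 2).

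Among 19 genes of fatty acid synthesis 4 rose and 0 fell (median 0.38). ACSS2, which makes acetyl-CoA from acetate, had 297, 303 and 139 CPM with BafA1, against 89.0, 85.1 and 89.2 CPM with vehicle (log2 fold change 1.49, SE 0.24, adjusted p = 0.00192). Replicate 3 again was the lowest BafA1 library, yet the groups stayed apart. MLXIPL, the carbohydrate-responsive factor ChREBP, had 10.3, 10.6 and 9.69 CPM with BafA1, against 2.902, 2.97 and 2.17 CPM with vehicle, a log2 fold change of 1.93 to which the 3 BafA1 libraries contributed almost equally. LPIN1, a phosphatidate phosphatase, rose with a log2 fold change of 1.06. The remaining member that rose, ACACB (0.82), was not called without BafA1 replicate 3. Of 12 genes in a separate list of LXR targets and sterol efflux 1 rose, SOAT2, which esterifies cholesterol in enterocytes (1.64). Of 23 genes of fatty acid oxidation and PPAR targets 4 rose and 0 fell (median 0.16), with 2 rising without vehicle replicate 1 or BafA1 replicate 2. PPARA, the fatty acid receptor, had 48.2, 50.2 and 70.1 CPM with BafA1, against 21.6, 14.1 and 16.8 CPM with vehicle (log2 fold change 1.69, SE 0.20, adjusted p = 0.000287), and PLIN2, a lipid droplet protein, reached 101 ± 21.7 CPM with BafA1, against 44.5 ± 9.46 CPM with vehicle (SD, n = 3 each; log2 fold change 1.18). ABCA1, the cholesterol exporter, had 8.001, 14.6 and 66.6 CPM with BafA1, against 19.4, 18.1 and 10.1 CPM with vehicle. It was high in replicate 3 and within or below the vehicle range in the other BafA1 libraries, and the log2 fold change of 0.91 turned to -0.47 without replicate 3, neither passing.

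Glycolysis showed the same split. Of 21 genes 2 rose (median 0.10), against 6.15% called higher among all tested genes. The count was 4 (median 0.35) without BafA1 replicate 3 and 1 without BafA1 replicate 2. List medians were 0.07, 0.62 and -0.57 in BafA1 replicates 1, 2 and 3. ENO2, an enolase isoform, had 48.5, 61.6 and 24.5 CPM with BafA1, against 10.3, 20.3 and 11.97 CPM with vehicle (log2 fold change 1.65, SE 0.31, adjusted p = 0.00439). ALDOC, an aldolase, had 53.8, 81.1 and 31.2 CPM with BafA1, against 20.2, 21.1 and 28.4 CPM with vehicle (log2 fold change 1.25, not called without BafA1 replicate 2). TXNIP, an inhibitor of glucose uptake whose transcription follows glucose, had 59.4, 50.7 and 19.2 CPM with BafA1, against 22.2, 37.6 and 25.3 CPM with vehicle. BafA1 replicate 3 was the lowest of all 6 libraries for TXNIP, and the log2 fold change of 0.60 (adjusted p = 0.235) was 0.95 (adjusted p = 0.023) without it. Why that library differed was not tested.

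**Figure D3:**
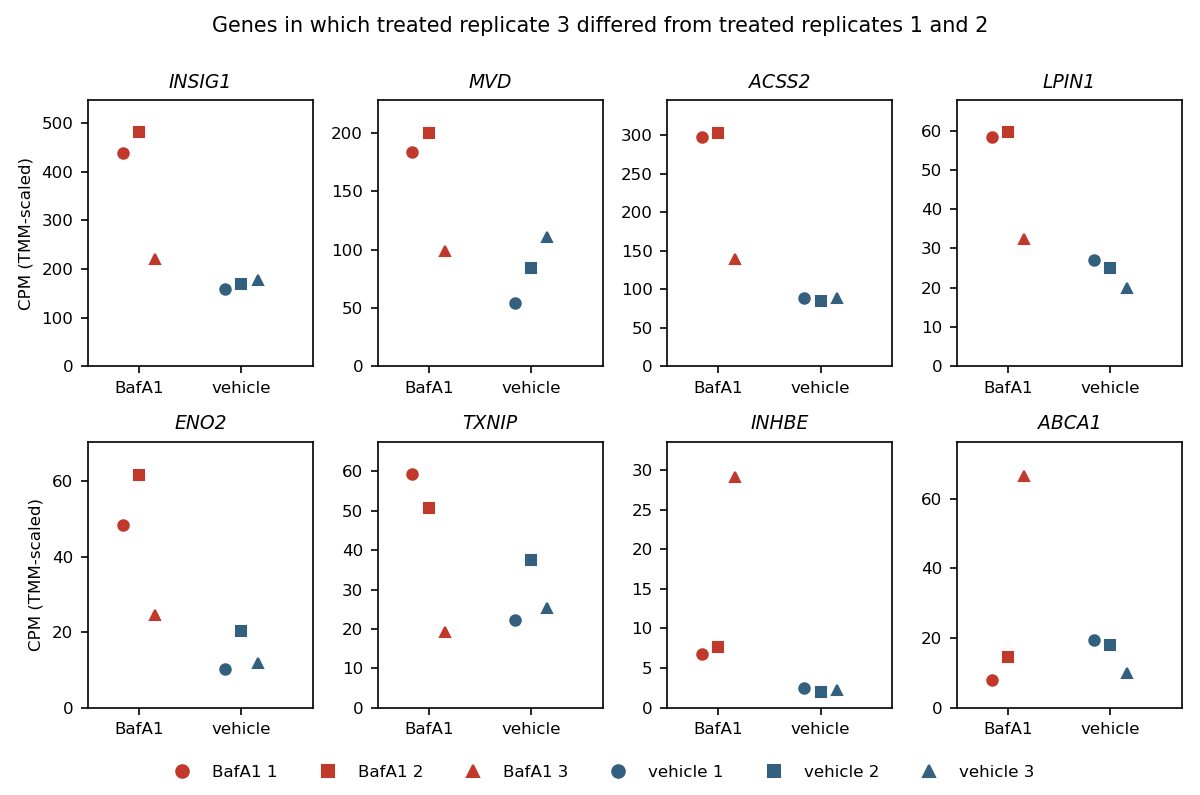
CPM (linear axes from 0) of 8 genes, chosen after their values were seen, in each BafA1 library (left, red) and vehicle library (right, blue); triangles are replicate 3. INSIG1, MVD, ACSS2, LPIN1, ENO2 and TXNIP are lowest in BafA1 replicate 3 within their group, while INHBE and ABCA1 are highest there.

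Hypoxia-response genes were among the lists with the highest share of rising members, 12 of 29 with 1 falling (median 0.76), and 13 rose without BafA1 replicate 3. The list median was 0.64, 0.85 and 0.43 above the vehicle mean in BafA1 replicates 1, 2 and 3. NDRG1, a stress- and hypoxia-induced protein, had 63.96, 86.9 and 77.3 CPM with BafA1, against 15.9, 19.1 and 17.9 CPM with vehicle (log2 fold change 2.11, SE 0.16, adjusted p = 8.49e-06). BHLHE40, a circadian repressor, had 76.8, 99.2 and 39.6 CPM with BafA1, against 10.4, 16.9 and 16.3 CPM with vehicle (log2 fold change 2.29, SE 0.28, adjusted p = 0.000377). Groups were separate for both, with BafA1 replicate 3 the lowest BafA1 library for BHLHE40. LOX, a collagen cross-linking enzyme, had 8.87, 22.8 and 16.1 CPM with BafA1, against 2.68, 2.202 and 2.803 CPM with vehicle, and VEGFA, the angiogenic growth factor, had 163, 165 and 165 CPM with BafA1, against 87.7, 105 and 89.8 CPM with vehicle. Their log2 fold changes were 2.64 and 0.80. ADM, adrenomedullin, also a hypoxia target, had 56.03, 62.5 and 44.8 CPM with BafA1, against 59.3, 91.6 and 81.5 CPM with vehicle, and did not pass (log2 fold change -0.51, adjusted p = 0.11). The member that fell, EGLN3, a prolyl hydroxylase of hypoxia-inducible factors, had a log2 fold change of -1.23 and was named after its values were seen.

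Iron genes gave 0 calls of 23 with edgeR (8 at an unadjusted p under 0.05, and 3 with DESeq2), though 4 were called higher without vehicle replicate 3. TFRC, the transferrin receptor, had 939.9, 994 and 632 CPM with BafA1, against 897, 1039 and 745 CPM with vehicle (log2 fold change -0.06, adjusted p = 0.902). FTH1, ferritin heavy chain, had 509, 408 and 428 CPM with BafA1, against 279.8, 175 and 380.4 CPM with vehicle (log2 fold change 0.69, adjusted p = 0.101). The FTH1 groups did not overlap, which held in 14.9% of all tested genes in the direction of BafA1 and in 11.1% in the other. Zinc transporters moved in opposite directions. SLC30A4, which loads zinc into vesicles, had 9.12, 6.54 and 9.72 CPM with BafA1, against 2.01, 2.97 and 2.65 CPM with vehicle (log2 fold change 1.70), while the importer SLC39A10 had 119, 138 and 99.6 CPM with BafA1, against 244, 224 and 178 CPM with vehicle (-0.86). Both calls held without any 1 library, and they were the only calls among 15 genes of zinc, copper and metallothionein handling.

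Targets of ATF4, the factor of the integrated stress response, rose in 13 of 28 cases with 0 falling (median 0.59), and in 9 without BafA1 replicate 3, in which the list median was 0.97, against 0.50 and 0.51 in BafA1 replicates 1 and 2. GDF15, a circulating stress cytokine, had 114, 112 and 70.2 CPM with BafA1, against 14.3, 38.04 and 23.2 CPM with vehicle (log2 fold change 1.96, SE 0.29, adjusted p = 0.00121). KLHL24, a ubiquitin ligase adaptor, had 84.2, 67.6 and 107 CPM with BafA1, against 25.6, 20.2 and 17.3 CPM with vehicle (log2 fold change 2.04, SE 0.20, adjusted p = 8.62e-05). INHBE, an activin subunit, had 6.79, 7.704 and 29.2 CPM with BafA1, against 2.46, 1.94 and 2.23 CPM with vehicle, a log2 fold change of 2.74 and of 1.74 without replicate 3. All vehicle libraries were below all BafA1 libraries for these 3 genes, and INHBE was far higher in BafA1 replicate 3 than in the other BafA1 libraries. DDIT3 (CHOP) had 22.2, 20.3 and 53.8 CPM with BafA1, against 10.6, 10.98 and 17.4 CPM with vehicle, and CHAC1, which degrades glutathione, had 19.4, 20.6 and 29.3 CPM with BafA1, against 7.51, 13.5 and 15.3 CPM with vehicle. Their calls (log2 fold changes 1.29 and 0.91) were lost without BafA1 replicate 3 (0.70 and 0.71), and that of DDIT3 also without vehicle replicate 1 or 2. ATF4 itself (0.45) and ATF3 (0.51) did not pass (adjusted p = 0.233 and 0.0561).

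Amino acid supply changed in part. Of 28 transporters 5 rose and 1 fell, with 3 rising without BafA1 replicate 3. SLC6A9, a glycine transporter, had 24.7, 27.5 and 50.5 CPM with BafA1, against 11.2, 15.2 and 10.8 CPM with vehicle (log2 fold change 1.46), and SLC1A4, which carries alanine, serine and cysteine, had 36.3, 42.8 and 45.02 CPM with BafA1, against 16.3, 24.9 and 16.3 CPM with vehicle (1.10). The leucine carrier SLC7A5 had 678, 751 and 594 CPM with BafA1, against 931, 1922 and 1157 CPM with vehicle, and its log2 fold change of -0.99 lost its call without vehicle replicate 2, BafA1 replicate 1 or BafA1 replicate 3. Of 20 genes of serine, one-carbon and asparagine synthesis 4 rose and 3 fell. In this list 1 fell without BafA1 replicate 1 or 3, 6 rose without vehicle replicate 3, and 0 rose or fell when only the 6 rich-medium libraries were fitted. ASNS, asparagine synthetase, had 219, 191 and 227 CPM with BafA1, against 135, 122 and 135 CPM with vehicle (log2 fold change 0.70, SE 0.14, adjusted p = 0.00729), and ASS1, which joins citrulline to aspartate, had 60.1, 57.2 and 169.5 CPM with BafA1, against 15.8, 16.1 and 36.4 CPM with vehicle (log2 fold change 2.06, and 1.36 without replicate 3). Cytosolic aminoacyl-tRNA synthetases fell in 2 of 20 cases, FARSB (-0.96) and VARS1 (-0.79, not called without BafA1 replicate 3), with a list median of -0.22.

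Endoplasmic reticulum chaperones and sensors rose in 4 of 25 cases (median -0.06), in 2 without vehicle replicate 1 and in 1 without BafA1 replicate 3. That member was HERPUD1, a component of the degradation machinery of this organelle, with 267, 252 and 325 CPM with BafA1, against 107, 123 and 113 CPM with vehicle (log2 fold change 1.30, SE 0.17, adjusted p = 0.000486). DNAJB9, a co-chaperone of BiP, had 49.03, 42.2 and 85.8 CPM with BafA1, against 23.96, 29.5 and 31.5 CPM with vehicle, and lost its call without replicate 3 (log2 fold change 1.05 and 0.69). The pattern TGATGNAA, which covers many sites of ATF4 paired with C/EBP factors, lies on either strand in 6 of 24 matched promoters of the ATF4 list (25%) and in 1.90% of tested promoters. In the ATF4 list it is in 3 of the 11 matched promoters of members called higher, and in 2.10% of all promoters called higher. The share was not particular to that list. Among aminoacyl-tRNA synthetases, where 0 rose and 2 fell, the pattern lies in 6 of 16 matched promoters (37.5%). It lies in 21.4% for the serine, one-carbon and asparagine list and in 16.7% for amino acid transporters. HERPUD1 is of the endoplasmic reticulum list, where the pattern lies in 1 of 24 matched promoters (4.17%). Its window is shown as that match, in a gene whose call held without any 1 library, with the match, here on the opposite strand, in capitals.
HERPUD1: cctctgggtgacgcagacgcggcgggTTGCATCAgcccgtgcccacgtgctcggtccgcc
The window is chr16:56931940-56931999, plus strand.

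Most genes of mitosis fell. Of 40 mitosis and spindle genes 32 fell and 0 rose (median -0.87), and 19 fell without BafA1 replicate 3. CDC20, the activator of the anaphase-promoting complex, had 40.7, 48.1 and 41.3 CPM with BafA1, against 92.4, 101 and 118 CPM with vehicle (log2 fold change -1.26, SE 0.15, adjusted p = 0.00036). PLK1, the polo kinase of mitotic entry, had 53.6, 70.4 and 61.6 CPM with BafA1, against 137, 145 and 148 CPM with vehicle (log2 fold change -1.21, SE 0.16, adjusted p = 0.000657). KIF20A, a kinesin of cytokinesis, had 35.9, 40.9 and 40.3 CPM with BafA1, against 115, 94.7 and 87.1 CPM with vehicle (log2 fold change -1.34). In all 3 genes the highest BafA1 library was clearly under the lowest vehicle library, and BafA1 replicate 3 lay between the other BafA1 libraries. That position was not typical of the list. Its median was -0.74, -0.69 and -1.05 relative to the vehicle mean in BafA1 replicates 1, 2 and 3, lowest in replicate 3. The proliferation marker MKI67 had 146, 185 and 127 CPM with BafA1, against 327, 406 and 206 CPM with vehicle, a log2 fold change of -1.03 that no longer passed if vehicle replicate 1 or 2 or BafA1 replicate 1 or 3 was left out.

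DNA replication genes fell in 14 of 41 cases with 1 rising (median -0.45). The number that fell was 4 without BafA1 replicate 3, 7 without vehicle replicate 1 or 3, 8 without BafA1 replicate 1, 2 with voom sample weights and 0 when only the 6 rich-medium libraries were fitted. The list median was -0.28, -0.26 and -0.89 in BafA1 replicates 1, 2 and 3. MCM4, a subunit of the replicative helicase, had 182, 208 and 108 CPM with BafA1, against 285, 280.1 and 289.7 CPM with vehicle (log2 fold change -0.78, SE 0.19, adjusted p = 0.0174), and PCNA, the sliding clamp, had 168, 156 and 82.9 CPM with BafA1, against 268, 188 and 255 CPM with vehicle (log2 fold change -0.80, with the call lost without vehicle replicate 1 or 3 or BafA1 replicate 2 or 3). BafA1 replicate 3 was the lowest library for both. The member that rose, the licensing factor CDT1 (0.62), was named after its values were seen and lost its call without vehicle replicate 1 or any BafA1 library. Of 43 replication-dependent histone genes 19 fell and 0 rose (median -0.96), with 30 falling without vehicle replicate 1, 12 without vehicle replicate 3 and 6 without BafA1 replicate 1. H2AC12 had 25.1, 40.8 and 28.8 CPM with BafA1, against 75.8, 64.7 and 129 CPM with vehicle (log2 fold change -1.51), with vehicle replicate 3 the highest. H2AC14 had a log2 fold change of -1.51. The linker histone H1-5 had 63.1, 67.8 and 82.02 CPM with BafA1, against 148, 135 and 394 CPM with vehicle, a log2 fold change of -1.67 that was -0.99 without vehicle replicate 3. Histone genes are near-identical copies, so the split of reads between them is uncertain. Of 18 genes of G1 cyclins, E2F factors and the retinoblastoma family 4 fell and 0 rose (median -0.42), with 0 falling without vehicle replicate 1 or BafA1 replicate 3 or when only the 6 rich-medium libraries were fitted.

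The cell-cycle homology element TTTGAA, which binds the DREAM and MuvB complexes of late cell-cycle genes, lies on either strand in 23 of 33 matched promoters of the mitosis list (69.7%), in 22 of the 28 of members that fell, and in 10.3% of tested promoters. The CCAAT box, a partner of that element, lies in 25 of 33 (75.8%), against 36.4% of tested promoters. Over all genes called lower the shares were 17.2% and 43.3%, and over all genes called higher 9.15% and 34.2%. The CCAAT box was as common in some lists that did not fall. It lies in 87.5% of matched endoplasmic reticulum promoters, where 4 genes rose and 0 fell. In the sterol list, where 2 rose and 0 fell, it lies in 75%, and in the histone list, where 19 fell, in 84.6%. The promoters of 3 members whose values are given above are shown with the element in capitals.
CDC20: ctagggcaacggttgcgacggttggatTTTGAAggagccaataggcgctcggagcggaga
PLK1: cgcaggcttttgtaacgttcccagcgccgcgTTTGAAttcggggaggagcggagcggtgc
MKI67: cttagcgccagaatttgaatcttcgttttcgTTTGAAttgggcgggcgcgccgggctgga
The MKI67 window holds a further copy of the element in lower case. The windows are chr1:43358889-43358948, plus strand, then chr16:23678829-23678888, plus strand, and chr10:128126424-128126483, minus strand.

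Genes that build ribosomes fell as well, 31 of 53 with 0 rising (median -0.63), and 16 without BafA1 replicate 3 or 19 without BafA1 replicate 1. When only the 6 rich-medium libraries were fitted, 7 fell. UTP20, of the small-subunit processome, had 69.1, 72.02 and 58.2 CPM with BafA1, against 192, 202 and 111 CPM with vehicle (log2 fold change -1.34, SE 0.20, adjusted p = 0.00115). POLR1G, a subunit of RNA polymerase I, had 11.97, 17.4 and 8.21 CPM with BafA1, against 32.6, 26.98 and 31.6 CPM with vehicle (log2 fold change -1.28), and NOC3L, of the large-subunit pathway, had 45.1, 46.98 and 31.7 CPM with BafA1, against 104, 78.7 and 86.6 CPM with vehicle (-1.12). All BafA1 libraries were below all vehicle libraries in these genes. Of 72 cytosolic ribosomal protein genes edgeR called 0 (4 at an unadjusted p under 0.05, 1 with DESeq2), with a median of 0.24, although 27 were called higher without vehicle replicate 3, whose list median stood 0.66 above the vehicle mean. For RNA polymerase III, the subunit gene POLR3D had a log2 fold change of 0.94 and MAF1, its repressor, of 0.81, and both calls held without any 1 library.

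The E-box CACGTG, bound by MYC and MAX and their antagonists, lies in 15 of 46 matched ribosome biogenesis promoters (32.6%), in 10 of the 27 of members that fell, in 14% of promoters of all genes called lower, and in 9.15% of those called higher. The E-box was about as common in some lists that rose with 0 falling. It lies in 31.8% of matched promoters of the MiT/TFE, Rag and folliculin list, where 5 rose. The shares were 27.8% for p53 targets and CDK inhibitors (7 rose) and 27.3% for FOXO targets and quiescence genes (11 rose). In the RNA polymerase III list, where 2 rose and 2 fell, it lies in 42.9%. The upstream windows of 2 ribosome biogenesis members that fell, with the E-box in capitals, follow.
POLR1G: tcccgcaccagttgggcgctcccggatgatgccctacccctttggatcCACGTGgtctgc
UTP20: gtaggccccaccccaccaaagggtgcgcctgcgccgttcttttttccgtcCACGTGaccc
They are chr19:45406584-45406643, plus strand, and chr12:101280045-101280104, plus strand. In the MYC and MAX network itself 6 of 13 genes rose and 0 fell (median 0.52). MXD4, a MAX partner that represses MYC targets, had 38.5, 37.6 and 53.4 CPM with BafA1, against 10.6, 10.8 and 15.2 CPM with vehicle (log2 fold change 1.81, SE 0.19, adjusted p = 0.000152). MXD1, another such partner, had 43.7, 38.7 and 40.05 CPM with BafA1, against 18.6, 16.1 and 12.9 CPM with vehicle (log2 fold change 1.37, SE 0.16, adjusted p = 0.000297), and MNT had 36.3, 39.01 and 41.9 CPM with BafA1, against 17.5, 27.5 and 19.96 CPM with vehicle (log2 fold change 0.84). MYC had 112, 151 and 82.3 CPM with BafA1, against 95.7, 130.4 and 149 CPM with vehicle, with overlapping groups (log2 fold change -0.12, adjusted p = 0.774), and MLXIPL, described above, was also among the 6.

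Nucleotide and polyamine synthesis fell in 8 of 22 cases with 0 rising (median -0.58). The number was 3 without BafA1 replicate 3, 5 without BafA1 replicate 1 and 13 without vehicle replicate 2. It was 1 when only the 6 rich-medium libraries were fitted. CTPS1, which makes CTP, had 29.04, 27.3 and 25.6 CPM with BafA1, against 54.4, 61.4 and 59.1 CPM with vehicle (log2 fold change -1.09, SE 0.16, adjusted p = 0.00102), and ODC1, which starts polyamine synthesis, had 143, 164 and 124 CPM with BafA1, against 285, 183 and 353 CPM with vehicle (log2 fold change -0.93, lost without BafA1 replicate 3). Genes tied to arrest or quiescence moved the other way. FOXO targets and quiescence genes rose in 11 of 25 cases with 0 falling (median 0.70), 7 to 14 without 1 library, and p53 targets with CDK inhibitors in 7 of 24 with 0 falling (median 0.37). YPEL2, a yippee-like protein, had 10.1, 9.897 and 13.6 CPM with BafA1, against 0.893, 1.72 and 1.703 CPM with vehicle (log2 fold change 2.89, SE 0.26, adjusted p = 3.7e-05), and its relative YPEL3 had 15.7, 13.8 and 18.7 CPM with BafA1, against 2.902, 4.25 and 5.76 CPM with vehicle (1.87). Both had clearly separate groups. CCNG2, a cyclin linked to cell-cycle exit, had 60.02, 57.0 and 56.1 CPM with BafA1, against 28.8, 17.5 and 21.7 CPM with vehicle (log2 fold change 1.36). CDKN1A, the p21 inhibitor, had 14.7, 17.6 and 10.5 CPM with BafA1, against 4.91, 3.77 and 5.26 CPM with vehicle (log2 fold change 1.62, SE 0.27, adjusted p = 0.0025). TP53INP1 and TP53INP2, which act in p53 signalling and autophagy, had log2 fold changes of 1.55 and 1.66. CCND1, the G1 cyclin, had 403, 467 and 218 CPM with BafA1, against 461, 415 and 474 CPM with vehicle, and did not pass (log2 fold change -0.31).

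**Figure D4:**
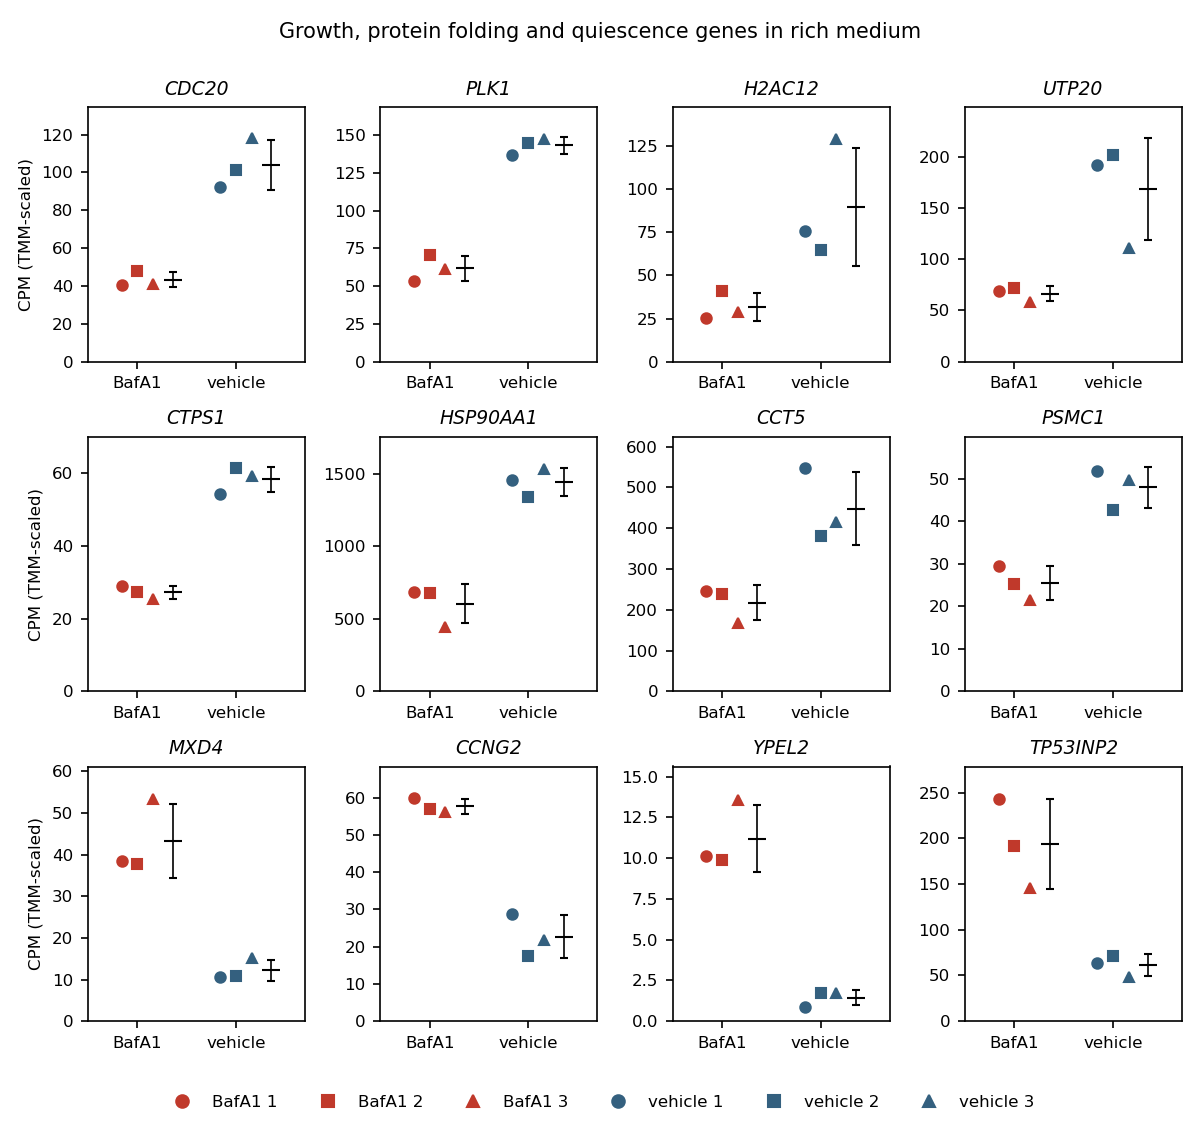
CPM (linear axes from 0) of 12 growth, protein folding and quiescence genes in each BafA1 library (left, red) and vehicle library (right, blue); shape gives the replicate and the black bar the mean with its SD (n = 3). CDC20, PLK1, H2AC12, UTP20, CTPS1, HSP90AA1, CCT5 and PSMC1 are lower with BafA1 and MXD4, CCNG2, YPEL2 and TP53INP2 higher, with no overlap between the groups.

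Most cytosolic chaperone and chaperonin genes fell. Of 19 cytosolic heat shock chaperones 11 fell and 1 rose (median -0.66), with 7 falling without BafA1 replicate 3, BafA1 replicate 1 or vehicle replicate 1. HSP90AA1, the inducible HSP90, had 688, 678 and 447 CPM with BafA1, against 1459, 1339 and 1532 CPM with vehicle (log2 fold change -1.26, SE 0.19, adjusted p = 0.00144). CHORDC1, an HSP90 co-chaperone, had 75.01, 75.9 and 67.7 CPM with BafA1, against 223, 127 and 167 CPM with vehicle (log2 fold change -1.24, SE 0.18, adjusted p = 0.000968), and HSPH1, an HSP110 protein, had a log2 fold change of -0.95. The member that rose was HSF1 (log2 fold change 0.53), the factor that drives heat shock genes, named after its values were seen, and it lost its call without any library except vehicle replicate 3. Of the 8 genes of the CCT/TRiC chaperonin, the ring that folds actin and tubulin, 7 fell (median -0.71). The number was 4 without BafA1 replicate 3 and 2 when only the 6 rich-medium libraries were fitted. CCT5 had 247, 238 and 169 CPM with BafA1, against 549, 381 and 415 CPM with vehicle (log2 fold change -1.04), and CCT2 had 148, 149 and 132 CPM with BafA1, against 227, 223 and 327 CPM with vehicle (-0.86). Of 31 proteasome subunits 8 fell and 0 rose (median -0.52), but this ranged from 3 without BafA1 replicate 1 or 3 or vehicle replicate 1 to 16 without vehicle replicate 2. With only the 6 rich-medium libraries fitted, 1 fell. PSMC1, an ATPase of the regulatory particle, had 29.6, 25.3 and 21.5 CPM with BafA1, against 51.8, 42.6 and 49.7 CPM with vehicle (log2 fold change -0.91), and PSMA4, of the core, had 95.4, 92.7 and 73.8 CPM with BafA1, against 186, 108 and 205 CPM with vehicle (-0.93).

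**Figure D5:**
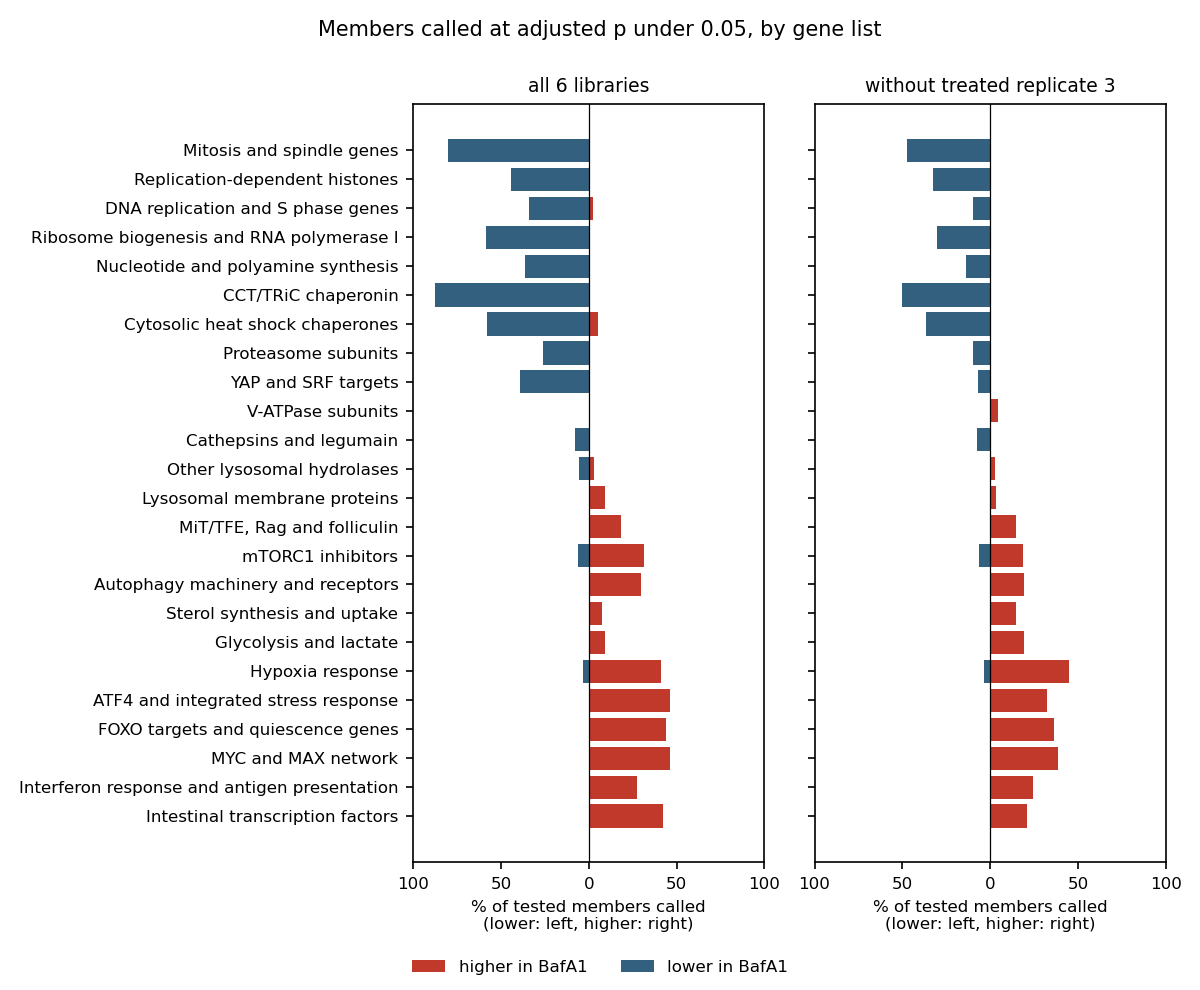
Percent of tested members called higher (red, right of 0) or lower (blue, left of 0) with BafA1 in 24 lists, with all 6 libraries (left panel) and without BafA1 replicate 3 (right panel). Mitosis genes were called lower in 32 of 40 cases in the left panel and 19 of 40 in the right, while hypoxia genes were called higher in 12 and 13 of 29.

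Several regulators of enterocytes were higher with BafA1. Of 19 intestinal transcription factors 8 rose and 0 fell (median 0.64), with 4 rising without BafA1 replicate 2 or 3. ELF3, an epithelial ETS factor, had 111, 124 and 91.3 CPM with BafA1, against 37.3, 59.6 and 53.6 CPM with vehicle (log2 fold change 1.12, SE 0.17, adjusted p = 0.00144). KLF4, a factor of differentiating gut cells, had 7.64, 8.65 and 7.89 CPM with BafA1, against 2.31, 3.9 and 3.22 CPM with vehicle (log2 fold change 1.33), and MAF had 7.02, 7.46 and 13.7 CPM with BafA1, against 1.94, 2.25 and 1.34 CPM with vehicle (2.36). CDX2, the master regulator of intestinal identity, had 109, 166 and 150.1 CPM with BafA1, against 43.8, 65.7 and 103 CPM with vehicle, where vehicle replicate 3 came close to BafA1 replicate 1, and its log2 fold change of 1.00 lost its call without vehicle replicate 1, BafA1 replicate 2 or BafA1 replicate 3. Of 30 brush border and transporter genes 7 rose and 2 fell (median 0.64). ALPI, intestinal alkaline phosphatase, had 18.8, 25.2 and 25.7 CPM with BafA1, against 4.76, 11.2 and 9.403 CPM with vehicle (log2 fold change 1.43), and ANPEP, aminopeptidase N, had 9.78, 11.6 and 11.2 CPM with BafA1, against 3.57, 4.83 and 2.85 CPM with vehicle (1.53). The villin gene VIL1 did not pass (-0.27, adjusted p = 0.366), and the glucose transporter SLC2A2 had 1.003, 1.15 and 2.79 CPM with BafA1, against 12.1, 4.93 and 3.01 CPM with vehicle, highest in the shallow vehicle library, with separate groups and a call that was lost without that library or BafA1 replicate 1 or 2. CREB3L3, a liver and gut factor of lipid transport, had 7.27, 5.22 and 4.99 CPM with BafA1, against 1.12, 1.46 and 1.44 CPM with vehicle (log2 fold change 2.10, SE 0.28, adjusted p = 0.000676). The summed epithelial markers given above were lower with BafA1, and their part in these results was not tested. At the junctions TJP3, a scaffold, rose with a log2 fold change of 0.97 and CTNNB1, beta-catenin, fell with -0.56, the calls among 25 genes, and the CTNNB1 call was lost without BafA1 replicate 1.

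Targets of YAP and serum response factor fell in 11 of 28 cases with 0 rising (median -0.51). The count was 2 without BafA1 replicate 3 or when only the 6 rich-medium libraries were fitted. It was 4 without BafA1 replicate 1 and 7 without vehicle replicate 2 or 3 or BafA1 replicate 2. MYL9, a myosin light chain, had 36.5, 54.97 and 39.9 CPM with BafA1, against 84.1, 86.2 and 137 CPM with vehicle (log2 fold change -1.23, SE 0.22, adjusted p = 0.00395). THBS1, thrombospondin, had 261, 334 and 183 CPM with BafA1, against 801, 1068 and 468 CPM with vehicle, and TAGLN had 70.4, 139 and 109 CPM with BafA1, against 154, 241 and 651 CPM with vehicle. Both spread widely among vehicle libraries and lost their calls without BafA1 replicate 1 or 3, among others, and TAGLN had a log2 fold change of -1.72, or -0.90 without vehicle replicate 3. The summed fibroblast markers overlapped between the groups, and their part in these results was not tested. Of 19 WNT targets and stem cell genes 5 fell and 0 rose (median -0.06), with 2 falling without BafA1 replicate 1 or 2 and 3 without BafA1 replicate 3. DKK1, a secreted WNT inhibitor and WNT target, had 892, 781 and 554 CPM with BafA1, against 1810, 1983 and 1496 CPM with vehicle (log2 fold change -1.25, SE 0.23, adjusted p = 0.00441), and the WNT effector LEF1 had 2.85, 3.67 and 4.14 CPM with BafA1, against 7.89, 7.99 and 11.6 CPM with vehicle (-1.37). Interferon-response genes rose in 8 of 29 cases with 0 falling (median 0.56), and in 5 without BafA1 replicate 1 or 2. In the fit of only the 6 rich-medium libraries 2 rose. IFIT3, an antiviral protein, had 5.26, 5.18 and 4.36 CPM with BafA1, against 2.01, 1.49 and 1.54 CPM with vehicle, and IRF7, a regulator of that response, had 15.6, 17.1 and 18.99 CPM with BafA1, against 7.51, 8.304 and 10.03 CPM with vehicle (log2 fold changes 1.57 and 0.99). Among ERK feedback genes DUSP5, a nuclear phosphatase, had 138, 124 and 72.6 CPM with BafA1, against 43.6, 45.5 and 48.5 CPM with vehicle (log2 fold change 1.28, SE 0.20, adjusted p = 0.00144), while DUSP6, its cytosolic relative, had 65.4, 61.6 and 33.6 CPM with BafA1, against 82.4, 91.9 and 97.4 CPM with vehicle and lost its call (-0.76) without any library except BafA1 replicate 1. Of 23 NRF2 genes 4 rose, the AKR1C genes AKR1C1, AKR1C2 and AKR1C3 and the exporter ABCC3 with 43.4, 42.8 and 80.2 CPM with BafA1, against 16.4, 23.4 and 15.2 CPM with vehicle, and 1 fell, TXN, a thioredoxin named after its values were seen, which lost its call without any library except vehicle replicate 2.

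Whether the rich-medium response differed from that in nutrient-depleted medium was tested as an interaction, the log2 fold change with BafA1 under depletion less the one in rich medium. It was positive for 424 genes (2.35% of those tested) and negative for 692 (3.83%) at an adjusted p under 0.05. Ribosome biogenesis held the most such genes of the 51 lists, 28 positive of 53 and 0 negative, where the rich-medium median was -0.63. UTP20 had a log2 fold change with BafA1 of -0.12 in depleted medium and -1.34 in rich medium (interaction adjusted p = 0.0194). Heat shock chaperones had 5 positive of 19, including HSP90AA1, CHORDC1 and HSPH1, and HSPA4L, outside that list, was higher with BafA1 in depleted medium (0.74, adjusted p = 0.0191) and lower in rich medium (-1.53). Intestinal transcription factors had 8 negative of 19, among them CDX2, with -0.75 in depleted and 1.00 in rich medium. Hypoxia genes had 6 negative of 29 with 1 positive, and NDRG1 was 0.12 in depleted and 2.11 in rich medium (interaction adjusted p = 0.000762). For INSIG1 (1.85 in depleted and 1.17 in rich medium), CTSC (-0.98 and -1.12) and SLC30A4 (1.75 and 1.70) the interaction did not pass (adjusted p = 0.231, 0.793 and 0.954), which does not show that the media acted alike. Genes called lower in rich medium had medians of -0.86 to -0.96 (log2) relative to the rich vehicle mean in depleted vehicle libraries. In rich BafA1 libraries these were -0.64 to -0.89. Genes called higher had 0.92 to 1.08 in depleted vehicle and 0.87 to 1.02 in rich BafA1 libraries. The change with BafA1 in depleted medium was thus measured from libraries already shifted, and the part of this in the interaction was not tested. Without BafA1 replicate 3 in rich medium the interaction passed for 600 genes in either direction, against 1116 with it. The number was 667 without BafA1 replicate 2 and 1844 without vehicle replicate 2.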

How the data were processed

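Total RNA depleted of ribosomal RNA was sequenced from 12 libraries, 3 in each of 4 groups. Estimated counts per gene were deposited by the authors for each library, made with DRAGEN on GRCh38 per the submitters' processing notes; the annotation release is not given in the sources used here. Here they were rounded to whole numbers and tested with edgeR 4.0.16 (R 4.3.3): quasi-likelihood, robust, TMM scaling, a filter at a minimum count of 10 and total of 15, all 12 libraries sharing 1 spread, Benjamini-Hochberg adjustment over 18047 genes, threshold 0.05. DESeq2 1.42.0 and limma 3.58.1 (voom with sample weights) were alternatives, with fits leaving out each rich-medium library. CPM are counts scaled to a common library total with TMM factors and compare libraries, not genes. Genes were named by a rule: extremes among called genes, smallest p, up to 4 per list, and a fixed panel. The rule also took extremes among genes that kept their call without BafA1 replicate 3 and without vehicle replicate 1. In the text 7 genes outside the rule are marked. Members, rule and lists were chosen with earlier results of these data known. The labels do not say whether replicate numbers pair libraries. Deviations from the group mean correlated at 0.07, -0.07 and 0.09 between rich-medium libraries of the same number, which cannot settle this. The share of reads from the small RNAs 7SK, 7SL, RPPH1 and RMRP was highest in replicate 3 of all 4 groups (7.72% to 8.74%).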

Additional observations from a re-analysis of the deposited data

Results flagged for a closer look

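The genes below were picked out because their response to BafA1 differed between the media by the interaction test, at an adjusted p under 0.05 over all tested genes (edgeR's quasi-likelihood test). Each value is the log2 fold change with BafA1 under depletion less the one in rich medium. Only named genes were looked at, most of them named for a call in rich medium. That fold change is subtracted here, so a sign opposite to it is favoured by the choice of genes. As given above, genes called in rich medium were, by their medians, already shifted the same way in depleted vehicle libraries. No explanation was tested.

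Stress and growth regulators that were higher with BafA1 in rich medium gave DDIT4 -2.13, GDF15 -1.53, KLHL24 -1.18, ULK1 -0.91, NDRG1 -1.99, LOX -1.95, YPEL2 -1.89, YPEL3 -2.20, CCNG2 -1.19, MXD4 -1.45 and TP53INP1 -1.43. DDIT4 had a log2 fold change of 0.80 in depleted medium and 2.94 in rich medium, so it was higher with BafA1 in both. Metabolic, epithelial and interferon genes gave AKR1C1 -1.77, AKR1C2 -1.33, ABCC3 -2.19, MLXIPL -1.42, PPARA -1.29, CREB3L3 -1.35, CDX2 -1.74, ELF3 -1.10, MAF -1.82, ANPEP -1.87, S100P -2.62, HPN -1.41, TCP11L2 -1.26, IFIT3 -2.16 and DUSP5 -1.09. The lysosomal genes CLN3 and CTSB gave -0.98 and -1.04, and the cyclin gene CCND1, not called in rich medium, gave -1.83.

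Positive values came from genes that were lower with BafA1 in rich medium, except ATF3 (1.07), which did not pass there. Chaperones gave HSP90AA1 1.09, CHORDC1 1.44, HSPH1 1.35 and HSPA4L 2.27. Ribosome and translation genes gave UTP20 1.23, POLR1G 1.57, FARSB 1.14 and VARS1 1.52, and the other genes were CDC20 0.97, LEF1 1.75, FJX1 2.14 and EGLN3 1.44.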

How the results depend on the processing

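Of 125 named genes called with BafA1 in rich medium, 0 changed sign under any alternative. Many were named for large fold changes or small p. Some were named for keeping their call without BafA1 replicate 3 and without vehicle replicate 1. Keeping a call is therefore favoured by the choice of genes. Of all 1109 genes called higher and 862 called lower, 566 and 294 were called again with both of those libraries left out. With DESeq2, the replicate block or the series-wide counts all 125 kept their call, with DESeq2's size factors 124, with no filter on low counts 123, with voom sample weights 91, with only the 6 rich-medium libraries 87, without both libraries in doubt (BafA1 replicate 3 and vehicle replicate 1) 97; with only rich-medium libraries and no BafA1 replicate 3 the number was 35. The 1109 genes called higher became 390 with voom sample weights, 293 with only the 6 rich-medium libraries, 653 without both libraries in doubt, and 62 with only rich-medium libraries and no BafA1 replicate 3. The 862 called lower became 402, 203, 357 and 7 under the same alternatives, and 1377 with DESeq2. Leaving out 1 library gave 655 to 1417 higher and 357 to 1239 lower. The 1116 interaction genes became 2070 with DESeq2, 1792 with no filter, 1969 with the replicate block, and 600 to 1844 without 1 library. The replicate block gave 1573 higher and 1259 lower, but the labels do not say whether replicate numbers pair the libraries. The causes were not tested. The vehicle libraries spread widely, and vehicle replicate 1 held 12969811 reads, which limits low genes most.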
